A study of Mus musculus with 3 samples.

Results

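Delta protocadherins are a family of 9 non-clustered protocadherin genes in the mouse, and their levels were measured here in neurons and neighbouring cells of the heart's own nervous system. The members were taken by name, as Pcdh1, Pcdh7, Pcdh8, Pcdh9, Pcdh10, Pcdh11x, Pcdh17, Pcdh18 and Pcdh19. All 9 were listed among the 32285 genes of the anterior and of the posterior count table and among the 31064 of the mixed one. The family was chosen by its UMI levels in these same libraries, which differed between neuron subtypes, so the levels and ratios of members given here are descriptions and carry no test.

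Protocadherins are cell-surface proteins of the cadherin superfamily whose extracellular repeats bind the same protein on a facing cell. The delta group is divided into delta-1 members (Pcdh1, Pcdh7, Pcdh9 and Pcdh11x), whose cytoplasmic tails carry an additional conserved motif that binds protein phosphatase 1, and delta-2 members (Pcdh8, Pcdh10, Pcdh17, Pcdh18 and Pcdh19), which have the shorter set of conserved tail motifs. The genes are scattered over the genome, unlike the alpha, beta and gamma protocadherins, which lie in clusters, and in the brain different neurons carry different combinations of members, which sort axons and shape synapses.

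The cells came from 3 single-cell RNA libraries of fluorescence-sorted cells from the atria of Baf53b-cre;lox-GFP mice, 1 library each of anterior ganglia (labelled 3 months old), posterior ganglia (4 months) and mixed ganglia (2 months, tissues pooled), each from both sexes. Expression of Cre follows the promoter of Actl6b (Baf53b), which encodes a subunit of the chromatin remodelling complex of neurons, so all libraries share the transgenes and none is a control without them. The protocol names 10 mice, does not say whether libraries share animals, and leaves region confounded with library and with labelled age. Neurons were cells with at least 10000 unique molecular identifiers (UMIs, each counting 1 captured RNA molecule) and a UMI of each of Snap25, Prph and Stmn2.

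By this definition 1314 of 2029 kept cells were anterior neurons, 1443 of 2624 posterior and 1971 of 2438 mixed, with median depths of 39858.5, 57249 and 57355 UMIs per neuron. Nos1 neurons had at least 1 UMI of Nos1 (neuronal nitric oxide synthase) per 10000. Of the rest, Ddah1 neurons had under 4 Npy and at least 1 Ddah1 UMI per 10000, and Npy neurons (neuropeptide Y) had at least 4 Npy and under 1 Ddah1. Ddah1 encodes an enzyme that degrades an inhibitor of nitric oxide synthesis. The anterior library held 103 Ddah1, 84 Nos1 and 1047 Npy neurons, the posterior 435, 61 and 758, and the mixed 332, 55 and 1486. The libraries shared 2 to 3 cell barcodes in pairs. Actl6b itself, at 0.675 to 1.07 UMIs per 10000 in all 3 neuron subtypes of every library, was at 0.0221 to 0.0707 in glia, although glia were present after the sort.

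The promoters of the members that the results turn on are shown here because the results below are differences in RNA level between genes that lie far apart, each with its own start. Promoter windows were taken from RefSeq (GRCm38.p6), and 7 of the 9 members had one, without Pcdh1 and Pcdh11x. The sequences run 5′ to 3′ on the gene's strand up to the base before its start, and capitals mark CG dinucleotides. Pcdh10, from chr3:45378148-45378397 on the plus strand, holds 22 CG dinucleotides in 250 bases, and Pcdh9, from chr14:93890680-93890929 on the minus strand, holds 18. Pcdh7 is shown from chr5:57717831-57717966 on the plus strand, the 136 bases that lie before the annotated gene.
Pcdh10: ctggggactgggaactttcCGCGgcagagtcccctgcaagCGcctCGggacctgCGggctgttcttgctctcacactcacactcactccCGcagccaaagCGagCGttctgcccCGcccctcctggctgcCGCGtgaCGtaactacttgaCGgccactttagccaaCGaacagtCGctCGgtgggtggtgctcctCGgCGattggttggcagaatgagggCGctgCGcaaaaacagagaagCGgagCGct
Pcdh9: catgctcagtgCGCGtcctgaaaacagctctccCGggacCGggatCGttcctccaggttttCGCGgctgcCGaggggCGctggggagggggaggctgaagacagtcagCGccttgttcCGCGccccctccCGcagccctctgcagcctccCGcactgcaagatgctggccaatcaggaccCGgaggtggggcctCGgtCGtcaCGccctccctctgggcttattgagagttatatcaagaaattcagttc
Pcdh7: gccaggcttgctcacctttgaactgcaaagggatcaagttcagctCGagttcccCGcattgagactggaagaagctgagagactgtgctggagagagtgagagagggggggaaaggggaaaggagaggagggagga
Over 27025 promoters of the same length the median number of CG dinucleotides was 6 and the 95th percentile 30. The whole Pcdh7 window held 7, Pcdh8 held 11, Pcdh19 16, Pcdh17 21 and Pcdh18 23. The letters GGGCGG, searched on both strands, were present in Pcdh10, Pcdh17, Pcdh18 and Pcdh19, and in 32.9% of all promoters. The letters TATAAA were present in Pcdh8 and in 13.0% of all promoters, and TAAT in Pcdh8 and Pcdh18 and in 55.3% of all. The E-box letters CANNTG were present in Pcdh19 alone among the 7 members, against 66.0% of all promoters. These are matches of letters in a window, and no factor was measured at them.

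The 9 genes lie on 5 chromosomes in the GENCODE vM21 annotation of GRCm38 (mm10), on which the coordinates below are given. Pcdh9 (ENSMUSG00000055421) is a gene of 877270 bases at chr14:93013410-93890679 on the minus strand, Pcdh7 (ENSMUSG00000029108) spans chr5:57717967-58133230 on the plus strand, and Pcdh10 (ENSMUSG00000049100) spans chr3:45378398-45435623 on the plus strand. Pcdh11x (ENSMUSG00000034755) lies at chrX:120290259-120910619, plus strand, and Pcdh19 at chrX:133582860-133688987, minus strand. Pcdh8 and Pcdh17 are neighbours on chromosome 14, 4.67 megabases apart with 1 protein-coding gene, Olfm4, between them, and Pcdh10 and Pcdh18 are neighbours on chromosome 3, 4.31 megabases apart with Pabpc4l between them. No member shared an exon with another gene on its strand, and none of the 50-base stretches in the last 500 bases of their transcripts was found in another gene. All members but Pcdh18 overlapped a gene on the opposite strand, and whether the counting used strand is not given in the sources used here.

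Pcdh7 and Pcdh9 were the most abundant members in neurons of every library. A UMI is counted once per molecule at the 3′ end of the RNA, so levels were not divided by gene length, and levels of different genes can still differ in how well their ends are captured. Pcdh9 averaged 0.682 UMIs per 10000 over anterior neurons, 0.681 over posterior and 0.609 over mixed neurons. Pcdh7 was at 0.696, 0.593 and 0.440 in the same libraries. These 2 genes together led in all 3 libraries: of all UMIs of the family in neurons, Pcdh9 held 34.4% in anterior, 33.1% in posterior and 44.5% in mixed neurons, and Pcdh7 held 35.1%, 28.8% and 32.1%.

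Pcdh1, known as an adhesion molecule of airway epithelium, came next at 0.356, 0.372 and 0.107 UMIs per 10000 in anterior, posterior and mixed neurons. Pcdh10, which in the brain helps axons grow and takes part in the removal of synapses, was at 0.0916, 0.228 and 0.104. The mixed library gave Pcdh1 and Pcdh10 nearly the same level, whereas in the regional libraries Pcdh1 was the higher of the pair. Pcdh17, which recruits actin regulators to contacts between axons in mice, was at 0.0769, 0.0784 and 0.0353. Pcdh19, the X-linked gene whose human counterpart underlies an epilepsy seen mainly in girls, was at 0.0704, 0.0755 and 0.0560. Pcdh17 and Pcdh19 were thus close in the regional libraries, and their order turned round in the mixed one.

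The other members were rare in neurons. Pcdh11x, X-linked like Pcdh19, was at 0.00424, 0.0235 and 0.0113 UMIs per 10000 in anterior, posterior and mixed neurons, from 22, 189 and 131 UMIs. Pcdh8, which in the rat is induced by neuronal activity and internalises N-cadherin, was at 0.00598, 0.00559 and 0.00629, from 31, 45 and 73 UMIs. Pcdh18 gave 2 UMIs in all anterior neurons, 7 in posterior and 0 in mixed neurons. A count of 0 over the mixed neurons is below the 3 UMIs that counting alone would leave undetected, so it sets a limit on Pcdh18 and does not show its absence.

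**Figure D1:**
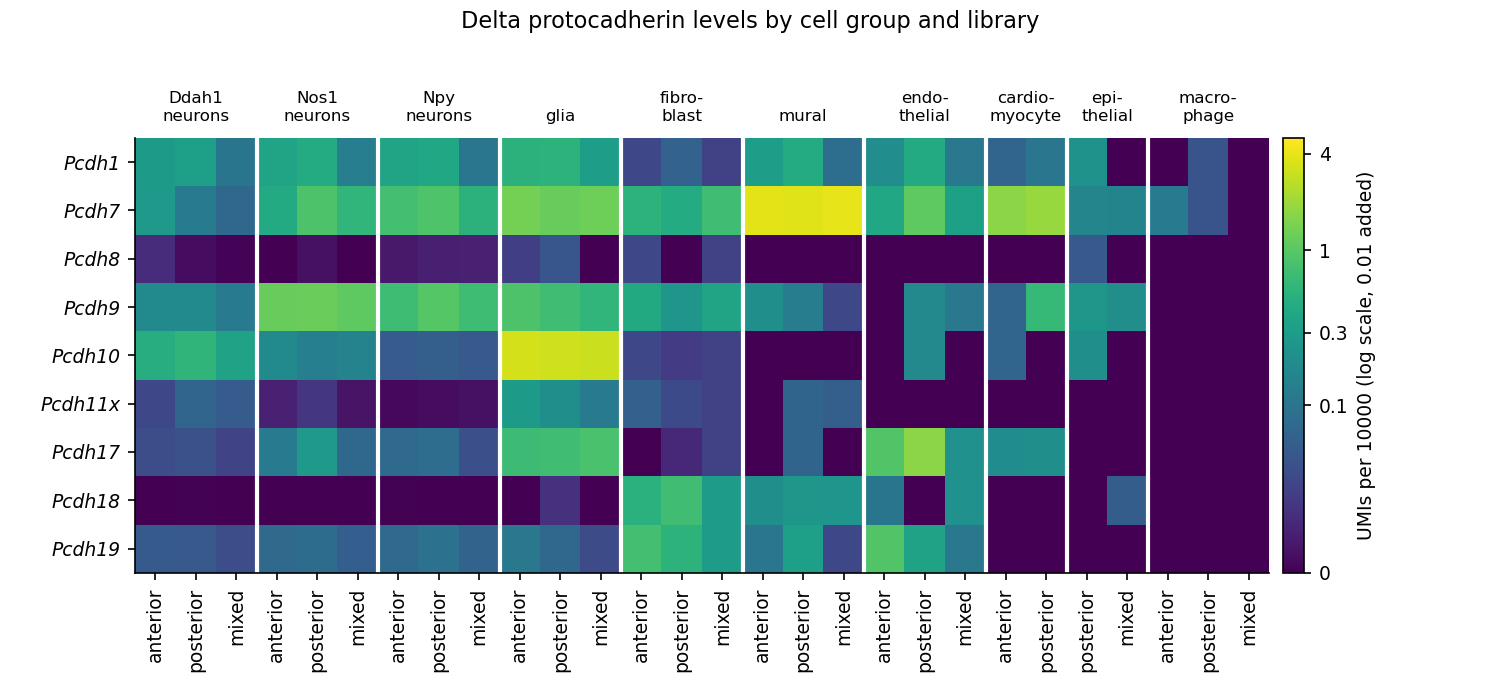
Level of each delta protocadherin (rows) in each cell group and library (columns), as UMIs per 10000 on a logarithmic colour scale with 0.01 added. Pcdh10 is brightest in glia and, among neurons, in Ddah1 neurons, while Pcdh7 is brightest in mural cells and Pcdh18 is brightest in fibroblasts.

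Ddah1 neurons and Npy neurons differed in the levels of several members. Pcdh10 and Pcdh11x were more than 2-fold higher in Ddah1 neurons than in Npy neurons in all 3 libraries, and Pcdh7 and Pcdh9 were more than 2-fold lower in all 3. These 4 were counted among the 8 members with at least 50 UMIs in the subtypes compared, since Pcdh18 did not reach that number. Among all 13921 genes of that depth, 1.27% were more than 2-fold higher in every library and 1.29% more than 2-fold lower. The members were selected knowing this contrast, so nothing is read from the share. The median log2 ratio of the 8 members was −0.44 (anterior), −0.67 (posterior) and −0.54 (mixed), beside 0.00, 0.01 and 0.02 over all genes.

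Among the delta-2 members Pcdh10 stood highest in Ddah1 neurons. It reached 0.472, 0.576 and 0.353 UMIs per 10000 in Ddah1 neurons of the anterior, posterior and mixed libraries, against 0.0493, 0.0561 and 0.0464 in Npy neurons. The lowest Ddah1 value was thus several times the highest Npy value. How many of all genes separate the subtypes in this way was not counted, so nothing is read from it for this or other members. The ratio of Ddah1 to Npy neurons was 9.57 in the anterior library (95% interval 7.83 to 11.7), 10.3 in the posterior (8.95 to 11.8) and 7.62 in the mixed (6.73 to 8.63). These and all other intervals are exact and cover counting error only.

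The difference was visible cell by cell. The median Ddah1 neuron had 0.377, 0.472 and 0.304 Pcdh10 UMIs per 10000 in the anterior, posterior and mixed libraries, and the median Npy neuron had 0 in each. When every neuron was thinned to 10000 UMIs, Pcdh10 was detected in 42.7%, 41.1% and 32.5% of Ddah1 neurons, against 5.44%, 4.88% and 5.25% of Npy neurons. Before thinning the shares were 67.0%, 87.1% and 77.1% of Ddah1 neurons and 13.2%, 17.3% and 17.8% of Npy neurons. Macrophages, which served as cells that should lack the gene, gave no Pcdh10 UMI in any library. They held 85005, 245244 and 141374 UMIs of all genes in the anterior, posterior and mixed libraries. That is too few to show a level as low as that of Npy neurons, so nothing is read from their 0 at that level.

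Pcdh11x, a delta-1 member, followed the same direction at a far lower level. It was at 0.0287, 0.0660 and 0.0505 UMIs per 10000 in Ddah1 neurons of the anterior, posterior and mixed libraries, against 0.00144, 0.00236 and 0.00319 in Npy neurons. The counts behind these levels were 12, 166 and 99 UMIs in Ddah1 neurons and 6, 10 and 28 in Npy neurons, so the anterior value is the least certain. The ratios were 19.9 (6.92 to 64.7), 28.0 (14.9 to 59.5) and 15.8 (10.3 to 25.0), the largest of any member. Among cells thinned to 10000 UMIs, Pcdh11x was detected in 3.88%, 5.98% and 5.12% of Ddah1 neurons and in 0.191%, 0.660% and 0.471% of Npy neurons. A single posterior Ddah1 neuron reached 4.43 Pcdh11x UMIs per 10000.

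The most abundant delta-1 members ran the other way. Pcdh9, which is found in particular neuron types of the mouse brain, was at 0.184, 0.179 and 0.119 UMIs per 10000 in Ddah1 neurons of the anterior, posterior and mixed libraries and at 0.711, 0.974 and 0.721 in Npy neurons. The Ddah1 to Npy ratio was 0.259 (0.204 to 0.325), 0.184 (0.167 to 0.203) and 0.166 (0.145 to 0.189). The Ddah1 neurons of all libraries lay below the Npy neurons of all libraries. Thinned to 10000 UMIs, 19.4%, 13.1% and 7.83% of Ddah1 neurons and 47.9%, 56.3% and 47.6% of Npy neurons had a Pcdh9 UMI.

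Pcdh7, whose Xenopus counterpart guides retinal axons, showed the same direction with a wider spread between libraries. It was at 0.278, 0.118 and 0.0709 UMIs per 10000 in Ddah1 neurons of the anterior, posterior and mixed libraries, against 0.766, 0.893 and 0.527 in Npy neurons. The anterior Ddah1 neurons were the highest of the 3 but still below every Npy group. The ratios were 0.363 (0.299 to 0.437), 0.132 (0.117 to 0.148) and 0.135 (0.113 to 0.159). After thinning, Pcdh7 was detected in 26.2%, 9.43% and 9.04% of Ddah1 neurons and in 51.2%, 55.1% and 41.0% of Npy neurons.

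**Figure D2:**
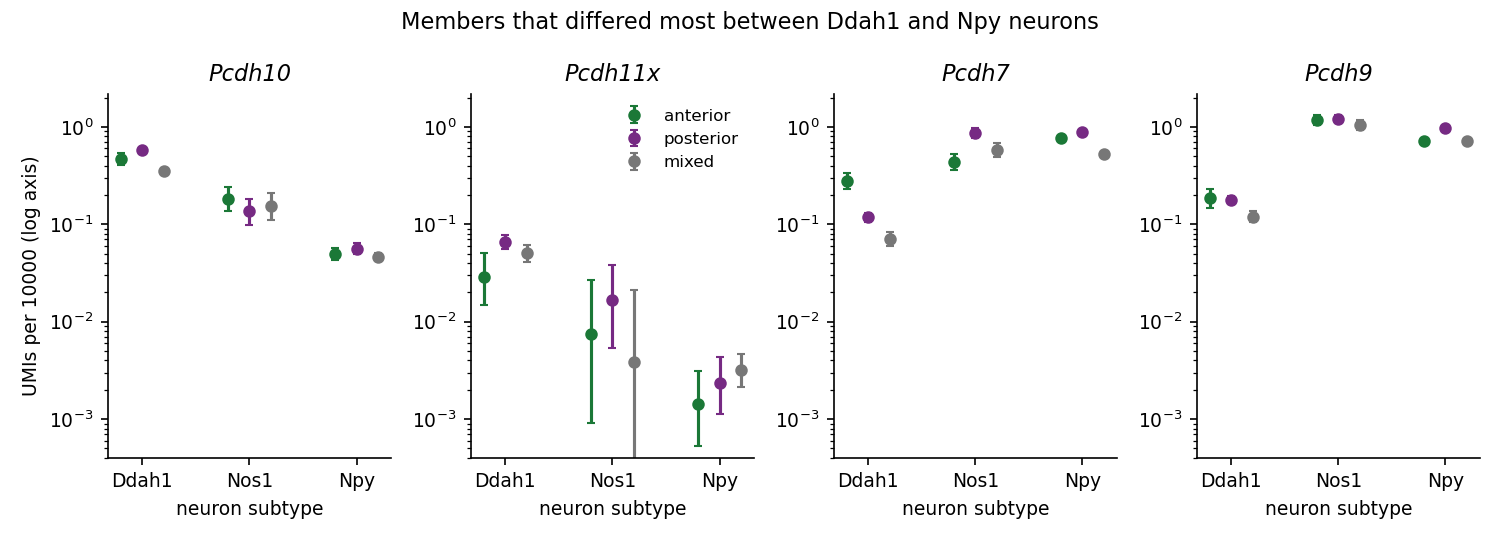
Levels of Pcdh10, Pcdh11x, Pcdh7 and Pcdh9 in Ddah1, Nos1 and Npy neurons, as UMIs per 10000 on a log axis, with a point per library and bars for the exact 95% Poisson interval of its count. In every library Pcdh10 and Pcdh11x are highest in Ddah1 neurons, and Pcdh7 and Pcdh9 are lowest in Ddah1 neurons.

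The remaining members differed less between these subtypes. Pcdh17 was at 0.0335, 0.0370 and 0.0260 UMIs per 10000 in Ddah1 neurons of the anterior, posterior and mixed libraries and at 0.0738, 0.0832 and 0.0356 in Npy neurons, with ratios of 0.454, 0.445 and 0.731. Pcdh19 was at 0.0479, 0.0461 and 0.0331 in Ddah1 neurons and at 0.0740, 0.0930 and 0.0626 in Npy neurons, with ratios of 0.647, 0.496 and 0.530. Both were lower in Ddah1 neurons within every library, and they were the members nearest to the 2-fold limit without passing it in all 3 libraries. The interval of the anterior Pcdh19 ratio (0.390 to 1.02) held 1. In neurons with no glia marker the Pcdh19 ratio was 0.738 (0.332 to 1.43) in the anterior, 0.556 (0.367 to 0.817) in the posterior and 0.812 (0.510 to 1.24) in the mixed library. The Pcdh17 ratio became 0.885 (0.600 to 1.28) in posterior neurons with no glia marker and 0.280 (0.138 to 0.513) in mixed neurons with fewer than 2 glia markers.

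Pcdh1 was nearly level, with Ddah1 to Npy ratios of 0.783 (0.644 to 0.944), 0.806 (0.740 to 0.877) and 0.971 (0.830 to 1.13) in the anterior, posterior and mixed libraries. Its share of thinned neurons was 31.1%, 25.7% and 12.7% of Ddah1 neurons and 28.6%, 30.5% and 12.2% of Npy neurons. Pcdh8 gave 5, 6 and 1 UMIs in Ddah1 neurons and 22, 30 and 66 in Npy neurons, and the ratio was above 1 in the anterior and below 1 in the other libraries. Pcdh18 gave at most 2 UMIs in either subtype of any library.

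**Figure D3:**
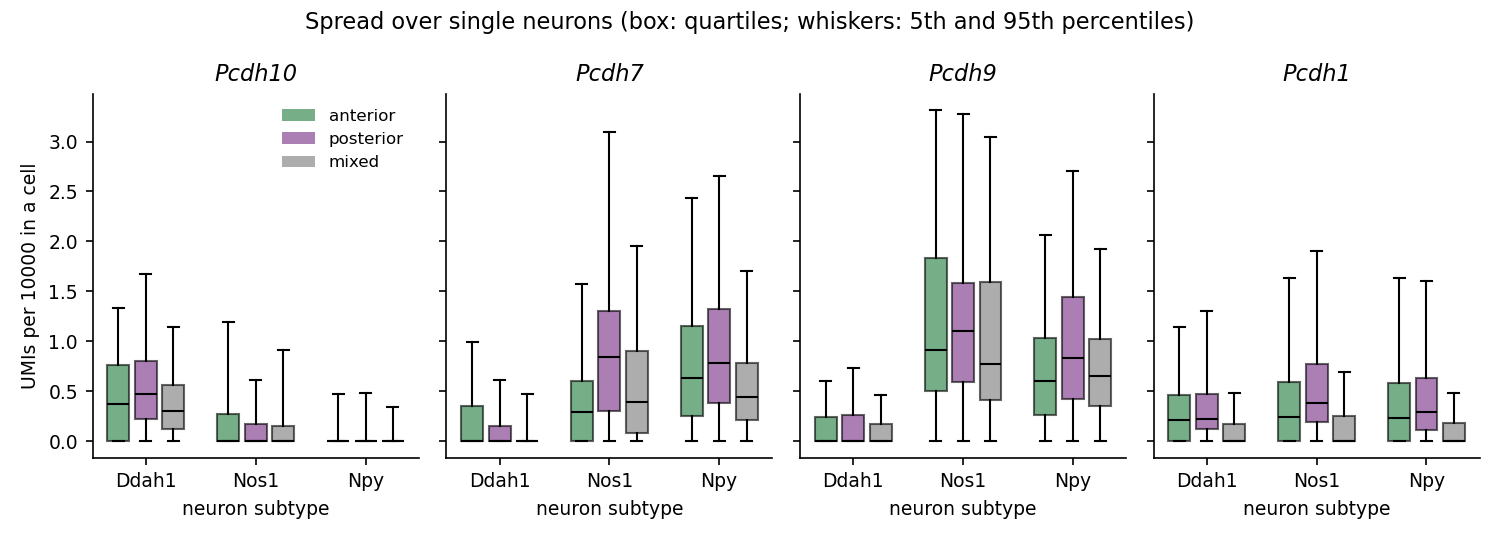
Spread of Pcdh10, Pcdh7, Pcdh9 and Pcdh1 over single neurons of each subtype and library, as UMIs per 10000, with boxes at the quartiles and whiskers at the 5th and 95th percentiles. The median Ddah1 neuron carries Pcdh10 and the median Npy neuron has none, while for Pcdh7 and Pcdh9 the median Ddah1 neuron is at 0.

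Nos1 neurons combined a high level of Pcdh9 with an intermediate level of Pcdh10. Pcdh9 was at 1.18, 1.21 and 1.06 UMIs per 10000 in Nos1 neurons of the anterior, posterior and mixed libraries, against 0.711, 0.974 and 0.721 in Npy neurons, and the ratios were 1.66 (1.47 to 1.86), 1.24 (1.11 to 1.38) and 1.46 (1.29 to 1.65). These were the highest Pcdh9 levels of any neuron subtype or marker-gated cell type. Subsets of posterior Npy neurons described further below, with Edn3 or with Ptger3, stood higher, at 1.34 and 1.27. By share of cells thinned to 2000 UMIs the order was less clear. Pcdh9 was detected in 26.7% (7.79% to 55.1%) of 15 posterior cardiomyocytes and in 19.7% (10.6% to 31.8%) of 61 posterior Nos1 neurons. The median Nos1 neuron had 0.917, 1.10 and 0.778 Pcdh9 UMIs per 10000, and 61.9%, 73.8% and 54.5% of thinned Nos1 neurons had one. Against Nos1 neurons, the Pcdh9 level of Ddah1 neurons was 0.156, 0.148 and 0.113 times as high.

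Pcdh10 was at 0.183, 0.135 and 0.153 UMIs per 10000 in Nos1 neurons, between the levels of the other subtypes in every library. The Nos1 to Npy ratio was 3.72 (2.67 to 5.11), 2.41 (1.69 to 3.37) and 3.30 (2.32 to 4.57). It was the 1 member of 8 that was more than 2-fold higher in Nos1 neurons in all 3 libraries, where 1.17% of 13570 genes were, and 0 of 8 members were more than 2-fold lower, where 0.214% of genes were. The median log2 ratio of the 8 members was 0.31, 0.24 and 0.23, beside 0.01, 0.01 and 0.03 over all genes.

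Pcdh17 was also higher in Nos1 neurons, at 0.124, 0.277 and 0.0726 UMIs per 10000 against 0.0738, 0.0832 and 0.0356 in Npy neurons. Its ratio was 1.67 (1.13 to 2.40), 3.33 (2.60 to 4.24) and 2.04 (1.21 to 3.24). The posterior value rested in part on single cells, of which the highest Nos1 neuron had 5.49 Pcdh17 UMIs per 10000, and the posterior log2 ratio of 1.62 became 0.92 without the 5% of neurons with most UMIs and 0.52 in neurons with no glia marker. Pcdh7 was at 0.438, 0.872 and 0.585 in Nos1 neurons, so that its ratio to Npy neurons was 0.572 (0.472 to 0.688) in the anterior library and close to 1 in the posterior at 0.976 (0.858 to 1.11) and mixed at 1.11 (0.939 to 1.30). Pcdh1 and Pcdh19 had ratios between 0.851 and 1.26, with intervals that held 1 in each library.

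Glia, the cells that wrap these neurons, carried more Pcdh10 than any neuron subtype taken as a group. Glia were gated on at least 3 of 8 markers, among them Sox10, Fabp7, S100b, Cdh19, Foxd3 and Erbb3, which gave 163 anterior, 155 posterior and 87 mixed cells with median depths of 2153, 3797 and 3105 UMIs. Pcdh10 was at 3.33, 3.15 and 3.02 UMIs per 10000 in them. Thinned to 2000 UMIs, 44.2%, 47.1% and 38.5% of glia had a Pcdh10 UMI, with 77, 34 and 22 shallower glia left out, beside 5.83%, 10.3% and 7.23% of Ddah1 neurons, 1.53%, 0.792% and 1.28% of Npy neurons, and 0 of 14, 33 and 24 macrophages (median depths of 5302, 6602 and 4738 UMIs), which allows a share of up to 21.4%, 9.09% and 12.5%. Pcdh11x was likewise highest in glia, at 0.287, 0.212 and 0.124 UMIs per 10000, from 13, 15 and 4 UMIs, so its rank in the mixed library is uncertain.

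Since Pcdh10 and Pcdh11x were higher in both glia and Ddah1 neurons than in Npy neurons, the glial RNA in each neuron subtype was measured. The summed level of the 8 glia markers in Ddah1 neurons was 1.99%, 1.86% and 2.14% of that in glia of the anterior, posterior and mixed libraries, 1.77%, 1.40% and 1.43% in Nos1 neurons, and 1.84%, 1.29% and 1.98% in Npy neurons. None of the 8 markers was at 0 in the Ddah1 and Npy neurons. The Pcdh10 level of Ddah1 neurons was 14.2%, 18.3% and 11.7% of the glial level, several times the share of the glia markers. In Nos1 neurons Pcdh10 was 5.51%, 4.29% and 5.07% of the glial level. In Npy neurons it was 1.48%, 1.78% and 1.54% of the glial level, close to the share of the glia markers. For Pcdh11x these shares were 10.0%, 31.1% and 40.6% in Ddah1 neurons and 0.503%, 1.11% and 2.57% in Npy neurons.

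The subtype difference in Pcdh10 was larger among neurons with few or no glia markers. Without neurons holding 2 or more of the glia markers, the Ddah1 to Npy ratio of Pcdh10 was 17.4, 16.9 and 23.7 in the anterior, posterior and mixed libraries. In neurons with no glia marker at all, Pcdh10 was at 0.505, 0.580 and 0.360 UMIs per 10000 in 42, 121 and 80 Ddah1 neurons, and at 0.0239, 0.0388 and 0.0152 in 615, 340 and 665 Npy neurons. The Ddah1 level thus stayed close to that of all Ddah1 neurons and the Npy level was lower than in all Npy neurons. The Pcdh7 ratio in neurons with no glia marker was 0.328, 0.0994 and 0.127 and the Pcdh9 ratio 0.292, 0.137 and 0.2005, on the same side of 1 as in all neurons. Pcdh11x gave ratios of 38.8 (6.35 to 407), 77.0 (20.4 to 651) and 40.1 in these neurons, from 5, 58 and 24 UMIs in Ddah1 neurons and 2, 2 and 5 in Npy neurons.

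**Figure D4:**
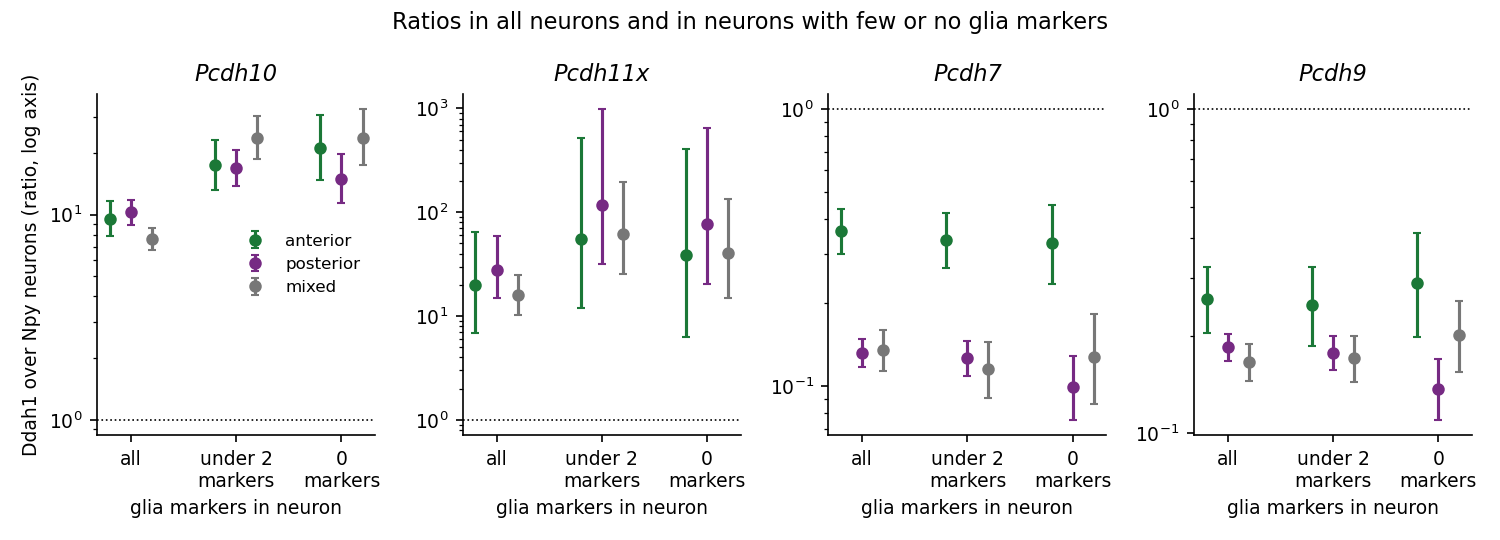
Ratio of Ddah1 to Npy neurons for Pcdh10, Pcdh11x, Pcdh7 and Pcdh9 in each library, on a log axis with exact 95% intervals, in all neurons, in neurons with fewer than 2 glia markers and in neurons with none. Pcdh10 lies at 7.62 to 10.3 in all neurons and at 14.9 to 23.7 in neurons with no glia marker, and Pcdh7 and Pcdh9 stay below 1 in every subset.

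Among other cells of the sort, Pcdh7 led in mural cells. Mural cells, the smooth muscle cells and pericytes of vessels, had the highest Pcdh7 levels of any group, at 3.91 (2.75 to 5.39), 3.65 (2.77 to 4.73) and 4.01 (3.38 to 4.73) UMIs per 10000 in the anterior, posterior and mixed libraries. Pcdh7 was detected in 42.1%, 47.6% and 40.9% of 19, 21 and 66 mural cells thinned to 2000 UMIs, while Pcdh10 gave 0 UMIs in mural cells of every library. Pcdh7 was also at 1.71 and 1.89 in anterior and posterior cardiomyocytes and at 1.35, 1.16 and 1.27 in glia. Glia had 0.882, 0.735 and 0.591 Pcdh9 UMIs per 10000, below the Nos1 neurons of the same library.

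Fibroblasts had the highest levels of Pcdh18, which binds the adaptor Disabled-1 in mice. It was at 0.516, 0.737 and 0.291 UMIs per 10000 in anterior, posterior and mixed fibroblasts, and 10.8%, 22.1% and 7.32% of fibroblasts thinned to 2000 UMIs had one. Mural cells followed at 0.211, 0.256 and 0.252, from 2, 4 and 9 UMIs. Among mixed cells with no UMI of Snap25, Prph or Stmn2 the order turned. There mural cells stood at 0.331 from 8 UMIs and fibroblasts at 0.310 from 7 UMIs. Mixed fibroblasts also held mural markers at a summed 66.0 UMIs per 10000, against 2.64 and 4.84 in anterior and posterior fibroblasts. Pcdh19 was at 0.774, 0.543 and 0.291 in fibroblasts, several times its level in any neuron subtype, and at 0.910, 0.353 and 0.111 in endothelial cells, from 9, 4 and 1 UMIs.

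Pcdh17 was highest in endothelial cells of the regional libraries at 0.910 and 1.68 UMIs per 10000, from 9 and 19 UMIs, and stood at 0.222 in the mixed library, from 2 UMIs. In glia it was at 0.706, 0.735 and 0.839. Pcdh1 was at 0.529, 0.551 and 0.311 in glia and at 0.0287, 0.0614 and 0.0242 in fibroblasts. Macrophages gave 1 Pcdh7 UMI in the anterior and 1 Pcdh7 and 1 Pcdh1 UMI in the posterior library, and 0 of every other member.

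These cells held some neuronal RNA. The summed level of Snap25, Prph and Stmn2 in glia was 5.05, 5.95 and 1.96 UMIs per 10000. Among the 38 anterior, 11 posterior and 46 mixed glia with no UMI of these neuron genes, Pcdh10 was at 3.29, 2.95 and 3.91, close to the level in all glia. Pcdh9 was at 0.767 and 0.996 in those anterior and mixed glia and gave 0 UMIs in the 11 posterior ones, where 3 UMIs would be 0.681 per 10000. Pcdh17 in the same glia was at 0.110, 1.13 and 0.996, from 1, 5 and 14 UMIs, so the anterior library stood lowest. Pcdh11x gave only 3, 0 and 1 UMIs in these anterior, posterior and mixed glia. In the mixed library this was 0.0711 per 10000, below the 0.0827 of mural cells with no UMI of the neuron genes, from 2 UMIs. Pcdh19 in fibroblasts without neuron genes was at 1.22, 1.01 and 0.399.

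Anterior and posterior neurons differed in Pcdh7 within Ddah1 neurons. Pcdh7 was at 0.278 UMIs per 10000 in the 103 anterior Ddah1 neurons and at 0.118 in the 435 posterior ones, a ratio of 2.36 (1.89 to 2.94). It was the only 1 of 7 members with enough UMIs to pass 2-fold between the regions in Ddah1 neurons, where 0.899% of 11459 genes did in either direction. Its log2 ratio of 1.17 was 0.86 without the 5% of neurons with most UMIs. Each region was 1 library, so no test is possible, and region, library and labelled age cannot be told apart.

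The other members with enough UMIs did not pass 2-fold between regions in Ddah1 neurons. Pcdh9 had an anterior to posterior ratio of 1.03, Pcdh1 of 0.887, Pcdh17 of 0.907, Pcdh19 of 1.04, Pcdh10 of 0.819 and Pcdh11x of 0.435, the last from 12 anterior and 166 posterior UMIs and short of 2-fold only with the 0.01 added to each level. Pcdh8, with 5 anterior and 6 posterior UMIs, was below the 50 UMIs needed and had a ratio of 5.02 (1.21 to 19.7). In Npy neurons 0 of 7 members passed 2-fold, where 0.283% of 12735 genes did. There the anterior to posterior ratio was 0.857 for Pcdh7, 0.730 for Pcdh9, 0.913 for Pcdh1, 0.879 for Pcdh10, 0.887 for Pcdh17, 0.795 for Pcdh19 and 0.748 for Pcdh8. All 7 lay below 1, and the median log2 ratio over all genes was −0.09 in the same direction, beside −0.16 for the 7 members. In Nos1 neurons, of which there were 84 anterior and 61 posterior, the ratio was 0.503 for Pcdh7 (0.401 to 0.627) and 0.446 for Pcdh17 (0.288 to 0.674), the direction of Pcdh7 opposite to that in Ddah1 neurons. Glial Pcdh10 had a ratio of 1.06 (0.854 to 1.31) between the regions.

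Over all neurons Pcdh10 was lower in the anterior library, at 0.0916 UMIs per 10000 against 0.228 in the posterior, a wider gap than within either subtype. Ddah1 neurons were 103 of 1314 anterior and 435 of 1443 posterior neurons. The mixed library stood apart in Pcdh1. In mixed Npy neurons it was at 0.106 UMIs per 10000, against 0.364 in anterior and 0.398 in posterior ones, and with 0.01 added to each level it was the 1 of 7 members more than 2-fold below both regional libraries, as 2.29% of 13478 genes were. The mixed counts were made with another annotation and software version, and their part in the Pcdh1 level was not tested. No member was more than 2-fold above both regional libraries, where 0.223% of genes were. Pcdh17 in mixed Npy neurons, at 0.0356 against 0.0738 and 0.0832 in anterior and posterior ones, was short of that limit only through the 0.01 added.

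Within Npy neurons the members varied with Ptger3, the gene of a prostaglandin E receptor. Npy neurons with at least 1 Ptger3 UMI per 10000 numbered 427 anterior, 334 posterior and 570 mixed cells, against 620, 424 and 916 with less. Pcdh1 was higher in the Ptger3 neurons by ratios of 2.36, 2.21 and 1.30, Pcdh19 by 2.10, 2.01 and 1.27, Pcdh17 by 1.81, 1.40 and 1.52 and Pcdh9 by 1.63, 1.72 and 1.30. Pcdh10 went the other way, with ratios of 0.619, 0.508 and 0.591. Every one of these ratios kept its side of 1 in all 3 libraries, and the regional libraries gave larger ratios for Pcdh1 and Pcdh19 than the mixed one.

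Edn3 and Tspan8 marked smaller sets of Npy neurons. The 120 anterior, 65 posterior and 83 mixed Npy neurons with at least 1 UMI of Edn3 (endothelin 3) per 10000 had more Pcdh17 than the others by ratios of 2.13, 2.48 and 1.77, and less Pcdh10 by 0.531, 0.391 and 0.524. The 67, 59 and 166 Npy neurons with Tspan8, a tetraspanin gene, had more Pcdh10 than the others, by 2.64, 2.46 and 1.80, and more Pcdh7, by 1.48, 1.44 and 1.42. Pcdh10 thus lay below 1 in the Edn3 split and above 1 in the Tspan8 split in each library. Pcdh17 was at 0.858, 0.819 and 0.883 times the level of the others in Tspan8 neurons, with intervals that held 1.

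**Figure D5:**
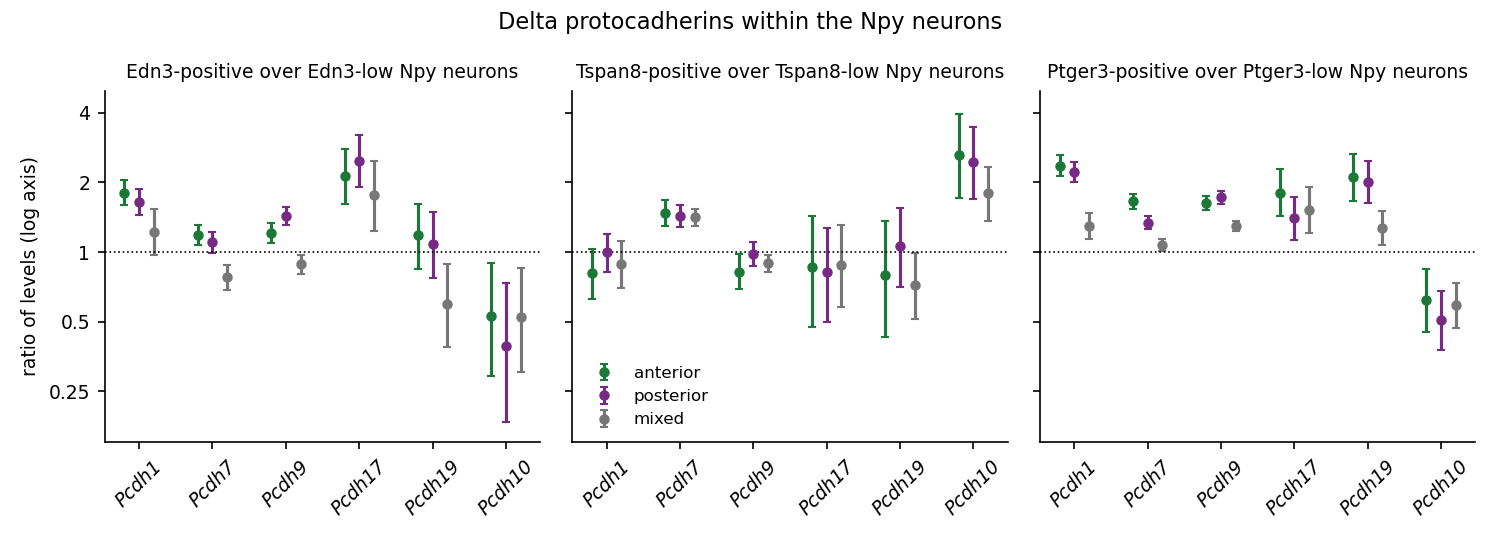
Ratio of 6 members (Pcdh1, Pcdh7, Pcdh9, Pcdh17, Pcdh19 and Pcdh10) between Npy neurons with at least 1 UMI per 10000 of a gene and Npy neurons with less, on a log axis, for Edn3, Tspan8 and Ptger3, with a point per library and exact 95% intervals. Pcdh10 lies below 1 in the Edn3 and Ptger3 panels and above 1 in the Tspan8 panel in all 3 libraries.

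Splits of the other subtypes rested on few cells. Nos1 neurons with at least 1 UMI of Vip (vasoactive intestinal peptide) per 10000 numbered 61, 23 and 23 in the anterior, posterior and mixed libraries, against 23, 38 and 32 with less. Their Pcdh9 level was higher by ratios of 1.49, 1.30 and 2.02, their Pcdh1 level by 1.90, 1.69 and 2.88, and their Pcdh10 level by 10.0, 2.31 and 1.70, where the anterior value compares 47 with 2 UMIs. Pcdh7 was lower in Vip neurons, by 0.853, 0.515 and 0.364. The intervals of the anterior Pcdh7 ratio (0.574 to 1.29) and of the mixed Pcdh10 ratio (0.868 to 3.33) held 1. Among Ddah1 neurons, the 31 posterior and 33 mixed cells with Mucl1 had less Pcdh9 than the others, by 0.454 and 0.249, while Pcdh10 was at 0.843 and 0.849 times their level. The anterior library had 1 such cell.

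Few members were detected in a single neuron at a fixed depth. Thinned to 10000 UMIs, a Ddah1 neuron had a mean of 1.37, 1.04 and 0.738 members in the anterior, posterior and mixed libraries, a Nos1 neuron 1.67, 1.80 and 1.29, and an Npy neuron 1.496, 1.63 and 1.17. At this depth the Nos1 neurons thus had the most members detected in every library and the Ddah1 neurons the fewest. No interval was computed for these means, and they do not count the members a neuron holds at its full depth. Neurons with none were 20.4%, 34.0% and 46.1% of Ddah1, 13.1%, 8.20% and 18.2% of Nos1 and 17.2%, 13.9% and 24.2% of Npy neurons.

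How often members were detected together, relative to the product of their separate shares, varied between pairs. In Npy neurons, 24.7%, 33.8% and 19.5% of thinned cells had both Pcdh7 and Pcdh9, beside products of the separate shares of 24.5%, 31.1% and 19.6%. Pcdh1 with Pcdh7 was 1.12, 1.15 and 1.25 times the product, and Pcdh1 with Pcdh9 1.16, 1.15 and 1.10 times. In Ddah1 neurons, Pcdh10 with Pcdh9 was 0.936, 1.15 and 0.591 times the product, from 8, 27 and 5 cells with both, and Pcdh10 with Pcdh1 was 1.10, 1.22 and 1.54 times, from 15, 56 and 21 cells. Pcdh10 with Pcdh11x was 1.76, 1.495 and 1.63 times the product in Ddah1 neurons, from 3, 16 and 9 cells.

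Genes whose levels ran most like each member but Pcdh8, which did not reach 0.2 UMIs per 10000 in any cell group, were found over 28 combinations of cell group and library, among 14813 genes, by the Pearson correlation of log2(level + 0.1). The points share libraries and, within a cell group, depth, so the values are descriptions. Pcdh10 was most like Luzp2 (r = 0.964), Bcan (0.923), which encodes the matrix proteoglycan brevican, and Kcnh8 (0.919), a potassium channel. Pcdh18 was most like Mfap5 (0.945), a microfibril component, Itgbl1 (0.928) and Lox (0.927), the collagen cross-linking enzyme. Pcdh11x was most like Sema3b (0.928), Insyn2b (0.897) and Prss35 (0.897). Its level was under the added 0.1 in every neuron subtype, and its glial levels of 0.287, 0.212 and 0.124 rest on few UMIs.

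The other members had looser companions. Pcdh9 was most like Lrrn3 (r = 0.874), Cadm1 (0.825), a cell adhesion gene, and Tmod2 (0.809), an actin-capping gene of neurons. Pcdh17 was most like Mmp15 (0.864), Tspan18 (0.858) and Rassf10 (0.843), and Pcdh19 like Galnt15 (0.856), the collagen gene Col15a1 (0.827) and the chemokine gene Cxcl12 (0.822). Pcdh7 was most like Samd4 (0.826), the adenylyl cyclase gene Adcy5 (0.825) and Synpo2 (0.815), and Pcdh1 like Etnk1 (0.801), Dbndd2 (0.790) and Rab3gap2 (0.786).

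Around the delta members, other cadherin superfamily genes and known partners were tested between the neuron subtypes on UMIs summed per library, with the library as a block, by edgeR's quasi-likelihood test with Benjamini-Hochberg adjustment over all genes and a threshold of 0.05. Of 13652 genes tested between Ddah1 and Npy neurons, 15.1% were called higher in Ddah1 neurons and 15.6% lower. Of 17 other solitary protocadherins and related genes, 10 were tested, 2 were higher and 3 lower. Pcdh20, which lies between Pcdh17 and Pcdh9 on chromosome 14, was at 0.0192, 0.0266 and 0.0112 UMIs per 10000 in Ddah1 neurons of the anterior, posterior and mixed libraries against 0.000961, 0.00141 and 0.000570 in Npy neurons (log2 fold change 4.21, edgeR's adjusted p = 1.48e-08). Fat4, a very large cadherin of planar cell polarity, fell by 1.43 on the log2 scale (edgeR's adjusted p = 0.000212), and Cdhr1 fell by 1.82 (edgeR's adjusted p = 0.000566). Fat3 rose by 0.64 (edgeR's adjusted p = 0.0163), a call that was lost without the mixed library (edgeR's adjusted p = 0.212). The Fat3 call was also lost under DESeq2 (adjusted p = 0.1355) and without the block (edgeR's adjusted p = 0.8375). That of Cdhr1 was lost without the posterior library (edgeR's adjusted p = 0.0891).

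Classical and related cadherins divided in both directions, with 5 of 16 tested higher and 4 lower in Ddah1 neurons, beside 15.1% and 15.6% of all genes. Cdh8 was at 0.539, 0.593 and 0.423 UMIs per 10000 in Ddah1 neurons and at 0.0406, 0.0504 and 0.0237 in Npy neurons (log2 fold change 3.80, edgeR's adjusted p = 1.70e-17). Its levels in Ddah1 neurons were close to those of Pcdh10. Cdh22 rose by 4.50 (edgeR's adjusted p = 2.25e-06) at levels of 0.00867 to 0.0143 in Ddah1 neurons. Cdh6, another type II cadherin, was at 0, 0.00556 and 0.00714 in Ddah1 neurons and at 0.0502, 0.0596 and 0.0550 in Npy neurons (log2 fold change −3.33, edgeR's adjusted p = 2.60e-10), and Cdh20 fell by 3.39 (edgeR's adjusted p = 3.64e-09). In Nos1 neurons, where 6.21% of 13021 genes were called higher than in Npy neurons and 5.91% lower, 4 of 13 cadherins were higher and 1 lower. Cdh20 was among the higher, at a log2 fold change of 1.56 over Npy neurons (edgeR's adjusted p = 2.23e-06).

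The clustered protocadherins gave 0 higher and 8 lower of 51 tested in Ddah1 neurons, beside 15.1% and 15.6% of all genes. They gave 1 higher and 0 lower of 46 tested in Nos1 neurons, beside 6.21% and 5.91% of all genes. Pcdha9 had the lowest log2 fold change, −1.89 (edgeR's adjusted p = 4.88e-05), followed by 1 of the 2 features named Pcdha11 at −1.36 (edgeR's adjusted p = 0.0253), a call that was lost without the posterior library (adjusted p = 0.285), under DESeq2 (adjusted p = 0.198) and without the block (adjusted p = 0.253). Pcdha7 and Pcdha8 had the highest, 0.40 and 0.38, and were not called. Genes of the alpha and of the gamma cluster share their last exons, so how 3′ UMIs were split among them is uncertain. The 8 lower genes became 2 when the posterior library was left out, 2 under DESeq2 and 0 with the block left out.

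Of 24 cytoplasmic partners of the delta family tested, 0 were higher and 4 lower in Ddah1 neurons, beside 15.1% and 15.6% of all genes. Enah, an actin regulator, fell by 0.47 on the log2 scale (edgeR's adjusted p = 1.39e-06), and Raph1 (lamellipodin), which Pcdh17 recruits in mice, fell by 0.37 (edgeR's adjusted p = 8.41e-05). Ppp1cc, a catalytic subunit of protein phosphatase 1, and Taf1, a partner of the Xenopus Pcdh7 counterpart, were not called, with log2 fold changes of 0.15 and 0.10. With the block left out, 0 of these 24 genes were called. In Nos1 neurons 2 of 25 were higher and 1 lower, beside 6.21% and 5.91% of all genes.

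Membrane partners and proteases gave 3 higher and 1 lower of 8 tested in Ddah1 neurons, beside 15.1% and 15.6% of all genes. The 3 higher became 1 under DESeq2, 1 with the block left out and 1 without the mixed library. Gabra2, a GABA-A receptor subunit of the family that Pcdh19 binds, was at 0.0455, 0.0227 and 0.0153 UMIs per 10000 in Ddah1 neurons and at 0.000721, 0.000707 and 0.000342 in Npy neurons (log2 fold change 5.40, edgeR's adjusted p = 6.17e-10). Fzd7, a Wnt receptor, fell by 1.86 on the log2 scale (edgeR's adjusted p = 2.01e-05). In Nos1 neurons 1 of 7 was higher and 1 lower, beside 6.21% and 5.91% of all genes.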

How the data were processed

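The authors deposited raw UMI counts per gene and cell barcode for 3 libraries of the 10x Chromium 3′ kit, and no normalization had been applied to these counts. Cell Ranger 6.1.2 wrote the anterior and posterior tables and Cell Ranger 3.1.0 the mixed one, per the file headers, whereas the submitters' processing notes name Cell Ranger 7.1.0, Seurat 4.4.2 and mm10. Total depth was 55329380 UMIs over 2256 barcodes in the anterior, 86391988 over 3276 in the posterior and 119825307 over 2829 in the mixed library.

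A cell needed 1000 or more UMIs, 500 or more genes and no more than 20% mitochondrial UMIs. Neurons and their subtypes were defined as given above, and neurons of no subtype (80 anterior, 189 posterior, 98 mixed) were left out of subtype comparisons. Other cells needed 3 markers of their type, and groups under 10 cells were not reported. No doublet caller was run; an alternative left out the 5% of neurons with most UMIs. Levels are UMIs summed over the cells of a group divided by their total UMIs, per 10000, with exact Poisson 95% intervals. Ratios have exact conditional intervals. The 2-fold counts used log2 ratios with 0.01 added to each level, over the 30406 genes shared by the libraries and with at least 50 UMIs. Shares of cells were taken after thinning each cell to 10000 UMIs (neurons) or 2000 (all cells), leaving out shallower cells. Cells are not replicates, and with 1 library per region no region test was run.

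Subtype tests used edgeR 4.0.16 in R 4.3.3 (TMM, filterByExpr, quasi-likelihood test, library as block, tested on simulated data), with DESeq2 1.42.0 as an alternative. Each library gave a Ddah1, a Nos1 and an Npy sum, so the block pairs sums of the same library. The p-values thus rest on how the difference between subtypes varied over these 3 libraries, for the gene and for all genes together. edgeR draws the spread of each gene toward a trend over all genes. A very small p-value therefore does not come from the 3 differences of that gene alone. Differences between libraries themselves are removed. Other steps used Python 3.11.15, numpy 2.4.6, scipy 1.17.1, pandas 2.3.3 and matplotlib 3.10.9. The genes named were all 9 members, the 2 highest and 2 lowest log2 fold changes of each list between Ddah1 and Npy neurons, and for each member the 3 genes most like it; some genes under this rule, and some markers, are not reported here. The members, lists and splitting genes were chosen with earlier results of these data known.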

Additional observations from a re-analysis of the deposited data

How the results depend on the processing

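The same 4 members (Pcdh7, Pcdh9, Pcdh10 and Pcdh11x) passed 2-fold between Ddah1 and Npy neurons in all libraries used under each of the 9 alternatives run, which included leaving out each library. Pcdh7 in Ddah1 neurons no longer passed 2-fold between the regions with a pseudocount of 0.1, which left 0 members past it. Of 302 single-member values under an alternative, 264 stayed within their counting interval, 38 moved outside it and 0 changed the sign of a difference over 2-fold. The genes called between Ddah1 and Npy neurons, 4189 with the library as replicate block, were 790 with no replicate block, 2678 by DESeq2 and 2848 to 4450 when 1 library was left out. Between Nos1 and Npy neurons, 1578 genes were called with the block, 243 with no replicate block, 1005 by DESeq2, and 930 without the anterior, 1017 without the mixed and 1100 without the posterior library. For the 2 highest and 2 lowest genes of each list in either contrast, 33 values lost their call under an alternative, 2 gained one and 0 reversed. The other listed genes are not in these counts. With no block, the classical and related cadherins called in Ddah1 neurons went from 5 higher and 4 lower to 3 and 2. Among the genes named above, Pcdha9, Fat4, Enah and Raph1 lost their call only without the block. The alternatives without the 5% of neurons with most UMIs, without neurons holding any glia marker, or (for the members) without 1 library were chosen after seeing the data. The counts of Pcdh8, Pcdh11x and Pcdh18 in neurons, and of every member in endothelial and mural cells, limit what their ratios can show.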
